A study of Mus musculus with 4 samples.

Results

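The 42 genes described here carry signals from Toll-like, interleukin 1 and tumour necrosis factor receptors to the transcription factor NF-kB, or are part of its feedback and output. They were chosen by name, with earlier results of these data known, and all 42 were found among the 52636 gene lines of the count table. Polyadenylated RNA of mouse Hoxb8 cells, under the same cell line name in all labels, was sequenced with the QuantSeq 3′ tag kit in 4 libraries. The first group holds cells with an empty vector (EV, n = 2) and the second holds cells that carry the leukaemia mutant DNMT3A R882H of a de novo DNA methyltransferase (R882H, n = 2). The promoter that drives the vector, whether either group is a clone or a pool, and whether replicates are separate cultures are unknown from the labels, so the spread that p-values rest on may be technical.

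In this pathway, Toll-like receptors bind microbial lipids, proteins or nucleic acids and recruit the adaptors MyD88 or TRIF, while the interleukin 1 receptor uses MyD88 as well. IRAK kinases, TRAF ubiquitin ligases and the TAK1 complex then switch on the IκB kinase, which marks IκB proteins for destruction and so lets NF-kB dimers enter the nucleus. There they switch on cytokine genes and also the genes of their own inhibitors. Myeloid progenitors and their descendants carry these receptors and respond to microbial products through them.

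The libraries held between 5470330 and 5921985 counts, and the detection floor for a count of 0 was set at 3 counts, equal to 0.502 to 0.550 CPM (counts scaled to library size). Intervals on counts and shares cover counting error only. Replicates of a group did not agree within sampling noise (chi-square per degree of freedom 6.91 in EV and 4.61 in R882H) and were kept as 2 samples each. Dnmt3a, the mouse gene, was not called (counts of 264 and 270 in EV, 254 and 239 in R882H), and 3′ tags need not cover a transgene, so this does not check the labels. Hoxb8 fell, with counts of 25 and 44 in EV and 15 and 4 in R882H, and here too a vector-borne copy need not be counted. The groups also differed in Y-linked transcripts: Ddx3y had counts of 0 and 2 in EV and 65 and 41 in R882H, while Xist had 1463 and 1438 in EV and 1880 and 1509 in R882H. Eif2s3y had counts of 1 and 0 in EV and 26 and 29 in R882H, Uty 0 and 0 against 12 and 10, and Kdm5d 1 and 2 against 7 and 7. The labels give both groups the same cell line name, and whether they came from the same founding cells is not stated there, so the origin of the cells may differ between the groups and cannot be told apart from the mutant.

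R882H cells had more transcript of the receptor genes Tlr1, Tlr2 and Il1rap and of the cytokine gene Il6, and less of the cyclooxygenase gene Ptgs2, the adaptor gene Myd88 and the NF-kB subunit gene Rela. Of the 42 members, 37 had enough counts to be tested, 9 of which were higher and 10 lower in R882H, with 18 not past the threshold (edgeR quasi-likelihood test, Benjamini-Hochberg adjusted p under 0.05 over 11444 genes). The word called is used below for genes past that threshold. The calls of Il1rap, Ptgs2, Myd88 and Rela did not hold under every alternative to the analysis. Among all tested genes 38.8% were called, 19.3% higher and 19.4% lower, against 51.4% of the tested members, and whether these shares differ was not tested. Changes were small for most: 7 called members differed by at least 2-fold and 12 by less. Both R882H libraries lay above both EV libraries in 12 of the 37 and below in 15, against 35.2% and 33.9% of all tested genes. The median log2 fold change (R882H over EV) was −0.07 over the tested members and 0.01 over all tested genes. Of the tested members, 4 (Tlr1, Il1rap, Irak2 and Il6) had at least 10 counts in both libraries of R882H alone and 2 (Tlr4 and Ptgs2) in both of EV alone, so these entered the test through the group where they were high. Among the 31 members with at least 10 counts in all 4 libraries, 5 were higher and 9 lower (45.2% called), against 36.5% of all genes with such counts. In bulk RNA, fewer cells of a type and less RNA per cell cannot be told apart. Levels are CPM. A group mean is given ± SD over its 2 libraries (n = 2), and a log2 change ± its standard error from the fit.

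**Figure D1:**
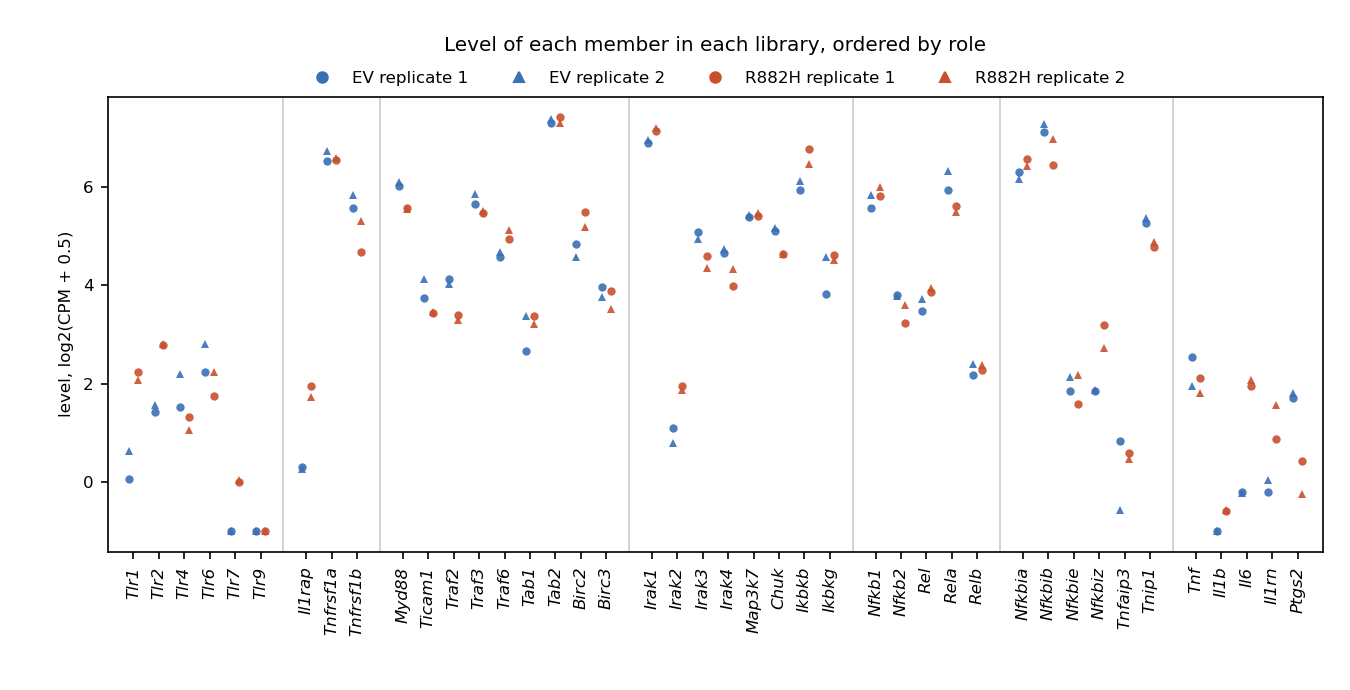
Level of each of the 42 members, log2(CPM + 0.5) on the vertical axis, in the 4 libraries (blue, EV; orange, R882H; circle, replicate 1; triangle, replicate 2), ordered from receptors at the left to cytokines at the right. The orange points of Tlr1, Tlr2, Il1rap and Il6 lie above both blue points, and those of Ptgs2, Myd88 and Rela below both.

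All the Toll-like receptor members had few counts. Tlr1 and Tlr2, whose products pair to sense bacterial lipopeptides, rose, while Tlr4 and Tlr6 were not called and Tlr7 and Tlr9 were not tested. Tlr1 (ENSMUSG00000044827, GRCm38 chromosome 5, bases 64924679 to 64933563) had counts of 3 and 6 in EV and 25 and 21 in R882H. Both R882H libraries stood above both EV libraries, with 0.805 ± 0.360 CPM with the empty vector and 3.93 ± 0.351 CPM in R882H (change of 2.25 ± 0.52 in log2 units, edgeR adjusted p = 0.000731, higher in 2 of 2 R882H libraries). Tlr2 (ENSMUSG00000027995, chromosome 3, bases 83836272 to 83841767) had counts of 12 and 14 in EV and 38 and 37 in R882H, again without overlap. Its level was 2.34 ± 0.191 CPM with the empty vector and 6.43 ± 0.0967 CPM with R882H, or 1.45 ± 0.37 in log2 units (edgeR adjusted p = 0.00201). Both calls held under all 8 alternatives to the analysis, with log2 fold changes from 1.87 to 2.79 for Tlr1 and from 1.37 to 1.53 for Tlr2.

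Tlr6, the neighbour of Tlr1 on chromosome 5 and the other partner of TLR2, gave lower counts in R882H on average without a call: it had counts of 23 and 37 in EV and 17 and 24 in R882H, where the nearest libraries of the groups almost touched at 4.22 and 4.21 CPM (log2 fold change −0.61, 95% interval −1.35 to 0.13, edgeR adjusted p = 0.186). Tlr4, the receptor for lipopolysaccharide, had counts of 13 and 23 in EV and 12 and 9 in R882H. Both R882H libraries lay below both EV libraries, and the call was missed (log2 fold change −0.84, 95% interval −1.77 to 0.10, edgeR adjusted p = 0.149). The nucleic acid sensors of endosomes were near or below the limit of detection. Tlr7 had 0 counts in both EV libraries and 3 in each R882H library, no more than the floor of 3 counts in any library, so that no fold is given, and Tlr9 had none in any of the 4 libraries, which allows up to 0.550 CPM.

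Of the 3 receptors for host cytokines, 1 was called higher, 1 lower and 1 was not called, and both calls ended under 2 of the 8 alternatives. Il1rap, the co-receptor that interleukin 1 and interleukin 33 receptors share (ENSMUSG00000022514, chromosome 16, bases 26581704 to 26730117), rose from counts of 4 and 4 in EV to 20 and 16 in R882H. The groups did not overlap, and the level was 0.720 ± 0.0194 CPM with the empty vector and 3.08 ± 0.380 CPM in R882H (change of 2.07 ± 0.55 in log2 units, edgeR adjusted p = 0.00322). This call ended without R882H replicate 1 (adjusted p = 0.0687) and in DESeq2 (0.0530), with adjusted p from 0.00338 to 0.0687 over the 8 alternatives. Tnfrsf1b, the TNF receptor found mainly on blood cells (ENSMUSG00000028599, chromosome 4, bases 145213463 to 145246870), fell, with 46.8 and 56.3 CPM with the empty vector against 24.9 and 39.3 CPM with R882H. Its log2 fold change was −0.69 ± 0.17 (edgeR adjusted p = 0.00215), and the R882H libraries differed from each other: the value was −0.38 without R882H replicate 1, where the call ended (adjusted p = 0.175), and −1.03 without R882H replicate 2. The call also ended without EV replicate 2 (0.0697), in a range from 5.02e-05 to 0.175. Tnfrsf1a, the widely expressed TNF receptor with a death domain, had 92.1 and 105 CPM with the empty vector against 93.0 and 95.7 CPM with R882H, and its groups overlapped (log2 fold change −0.07, 95% interval −0.33 to 0.20, edgeR adjusted p = 0.730).

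The adaptor shared by most Toll-like receptors was lower in R882H. Myd88 (ENSMUSG00000032508, chromosome 9, bases 119335934 to 119341411) had 64.4 and 68.1 CPM with the empty vector against 46.7 and 46.3 CPM with R882H, so that the libraries of a group lay close together and the groups apart (change of −0.51 ± 0.14 in log2 units, edgeR adjusted p = 0.00341). The call ended without R882H replicate 2 (0.0553, in a range from 0.00220 to 0.0553). Exons of Myd88 overlap those of Acaa1a, a peroxisomal thiolase gene with 17.6 CPM on average with the empty vector and 11.6 CPM with R882H; it lies on the opposite strand, the strand setting of the counting is unknown, and how many reads the genes share was not tested. Ticam1, which encodes TRIF, the adaptor of the other branch, had 12.8 and 16.9 CPM with the empty vector against 10.4 and 10.5 CPM with R882H, and missed the threshold (log2 fold change −0.51, 95% interval −0.97 to −0.06, edgeR adjusted p = 0.0684).

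TRAF and cIAP ubiquitin ligases act between receptors and kinases, TRAF6 downstream of Toll-like and interleukin 1 receptors and TRAF2 with cIAP proteins downstream of TNF receptors. Traf2 (ENSMUSG00000026942, chromosome 2, bases 25517982 to 25546940) had 16.9 and 15.9 CPM with the empty vector against 10.0 and 9.30 CPM with R882H and fell (change of −0.76 ± 0.22 in log2 units, edgeR adjusted p = 0.00588). Its call ended without R882H replicate 2 (0.0532) and in DESeq2 (0.0586), in a range from 0.00471 to 0.0586. Birc2, which encodes cIAP1 (ENSMUSG00000057367, chromosome 9, bases 7818227 to 7837064), rose, with 28.1 and 23.5 CPM with the empty vector against 44.7 and 35.8 CPM with R882H (0.64 ± 0.17 on the log2 scale, edgeR adjusted p = 0.00295). Without R882H replicate 1 that call ended too (0.100, in a range from 0.000713 to 0.100). Birc3, its neighbour and paralog, had 15.2 and 13.1 CPM with the empty vector against 14.2 and 10.9 CPM with R882H, with overlapping groups and no call.

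Traf6 (ENSMUSG00000027164, chromosome 2, bases 101678429 to 101701669) had 23.3 and 25.1 CPM with the empty vector against 30.1 and 34.6 CPM with R882H. It stood higher in both R882H libraries, but its call was marginal (change of 0.42 ± 0.17 in log2 units, edgeR adjusted p = 0.0482) and ended under 7 of the 8 alternatives, where the adjusted p ran from 0.0421 with the replicate number as a block to 0.295 without R882H replicate 2. Leaving out EV replicate 1 gave 0.146, EV replicate 2 0.0677 and R882H replicate 1 0.0738. DESeq2 size factors gave 0.0519, keeping low counts 0.0569 and DESeq2 itself 0.200. Traf3, a brake on the alternative NF-kB route, was not called (−0.27, 95% interval −0.56 to 0.03). Neither were Tab1 (0.24, 95% interval −0.31 to 0.79) and Tab2 (0.02, 95% interval −0.24 to 0.29), the partners of TAK1, whose groups overlapped.

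Within the kinase tier, the IκB kinase genes split. Ikbkb, the catalytic subunit of the canonical route (ENSMUSG00000031537, chromosome 8, bases 22659212 to 22706589), rose, with 60.9 and 68.7 CPM with the empty vector against 109 and 88.1 CPM with R882H (change of 0.61 ± 0.14 in log2 units, edgeR adjusted p = 0.000674). Chuk, which encodes the other catalytic subunit, IKKα (ENSMUSG00000025199, chromosome 19, bases 44073335 to 44107480), fell, with 33.9 and 35.3 CPM with the empty vector against 24.3 and 24.2 CPM with R882H (change of −0.51 ± 0.17 in log2 units, edgeR adjusted p = 0.0136). Neither pair of groups overlapped. The Ikbkb call ended without R882H replicate 1 (0.0603, in a range from 6.78e-05 to 0.0603). For Chuk, leaving out R882H replicate 1 (0.104) or replicate 2 (0.0966) or using DESeq2 (0.0770) ended it, in a range from 0.00972 to 0.104. Ikbkg, the regulatory subunit NEMO, had 13.6 and 23.5 CPM with the empty vector against 23.9 and 22.5 CPM with R882H, so that the groups overlapped (log2 fold change 0.32, edgeR adjusted p = 0.214), and it was called without EV replicate 2 (0.77, adjusted p = 0.0131) but not under the other 7 alternatives, where adjusted p reached 0.945. Exons of Ikbkg overlap G6pdx, which had 82.0 CPM on average with the empty vector and 48.2 CPM with R882H.

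Among the IRAK kinases, which bind MyD88, the genes for the first kinase of the chain and for the inhibitory member both fell. Irak4 (ENSMUSG00000059883, chromosome 15, bases 94543643 to 94581815) had 24.6 and 26.3 CPM with the empty vector against 15.4 and 19.5 CPM with R882H (change of −0.55 ± 0.18 in log2 units, edgeR adjusted p = 0.0177), and Irak3, a negative regulator also called IRAK-M (ENSMUSG00000020227, chromosome 10, bases 120141648 to 120202130), had 33.4 and 30.4 CPM with the empty vector against 23.8 and 19.8 CPM with R882H (−0.55 ± 0.17, edgeR adjusted p = 0.0116). Both groups stood apart in each gene. The Irak4 call ended on leaving out EV replicate 2 (0.0856) or R882H replicate 1 (0.281), and in DESeq2 (0.111), from a lowest value of 0.0135. For Irak3, EV replicate 1 (0.0645) or R882H replicate 2 (0.191) ended it when left out, as did DESeq2 (0.0757), from a lowest value of 0.00665. Exons of Irak4 overlap Twf1, which fell alongside (24.5 CPM with the empty vector and 16.5 CPM with R882H, on average), and those of Irak3 overlap Tmbim4 (145 and 140 CPM).

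Irak2, a kinase of the later response (ENSMUSG00000060477, chromosome 6, bases 113638467 to 113695026), had counts of 9 and 7 in EV and 20 and 18 in R882H. It was called with all 4 libraries (change of 1.16 ± 0.47 in log2 units, edgeR adjusted p = 0.0488) and under none of the 8 alternatives, where adjusted p ran from 0.0507 to 0.239 and the log2 fold change from 0.97 to 1.38. Leaving out EV replicate 1 gave 0.0971, EV replicate 2 0.239, R882H replicate 1 0.226 and R882H replicate 2 0.167. Irak1 had 118 and 123 CPM with the empty vector against 141 and 146 CPM with R882H, without overlap and without a call (0.25, 95% interval −0.02 to 0.51). Map3k7, which encodes TAK1, had 41.6 and 42.5 CPM with the empty vector against 42.2 and 44.1 CPM with R882H (0.03, 95% interval −0.27 to 0.34).

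**Figure D2:**
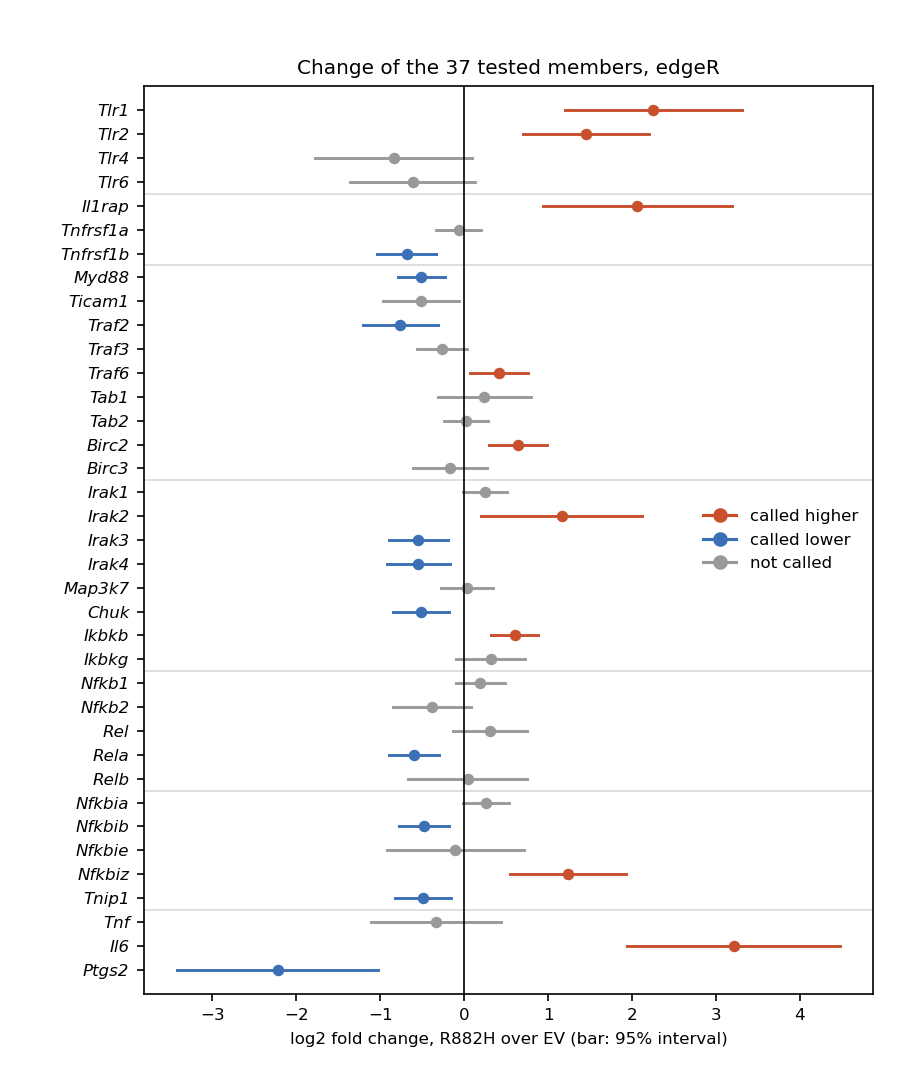
Log2 fold change of R882H over EV (horizontal axis) for the 37 tested members, with 95% intervals as bars, from the edgeR fit over 4 libraries, in order of role; orange, called higher; blue, called lower; grey, not called. Il6 (3.21) and Tlr1 (2.25) lie farthest to the right and Ptgs2 (−2.22) farthest to the left, while most called adaptors, kinases and inhibitors lie within 1 unit of 0.

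Of the 5 NF-kB subunits, which form the dimers that bind DNA, 1 was called (20%, against 38.8% of all tested genes). Whether these shares differ was not tested. Rela, which encodes the activating subunit p65 (ENSMUSG00000024927, chromosome 19, bases 5637483 to 5648130), had 60.5 and 80.0 CPM with the empty vector against 48.5 and 44.2 CPM with R882H. Both R882H libraries were below both EV libraries (change of −0.60 ± 0.15 in log2 units, edgeR adjusted p = 0.00130). The EV libraries differed, and without EV replicate 2 the value was −0.39 and the call ended (0.0573, in a range from 0.000295 to 0.0573). Nfkb1, whose product p105 is cut to p50, the usual partner of p65, had 47.1 and 56.8 CPM with the empty vector against 55.5 and 63.5 CPM with R882H, with overlapping groups and no call (0.19, 95% interval −0.10 to 0.49, edgeR adjusted p = 0.294). The subunits of the alternative route were not called either: Nfkb2, lower in both R882H libraries, had a log2 fold change of −0.38 (95% interval −0.85 to 0.08) and Relb, its partner, one of 0.04 (95% interval −0.66 to 0.75). Rel, the c-Rel subunit of blood cells, was higher in both R882H libraries than in both EV libraries, also without a call (0.31, 95% interval −0.13 to 0.75). Exons of Nfkb2 overlap Psd.

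As a share of the counts of these 5 subunits in the same library, which no scaling between libraries can alter, Rela made up 44.6% (exact 95% interval 41.0 to 48.3) and 47.7% (44.5 to 51.0) in the EV libraries. In the R882H libraries its share was 36.9% (33.6 to 40.4) and 31.8% (28.6 to 35.2), below both EV values. Nfkb1 held 34.7% and 33.9% in EV and 42.3% and 45.7% in R882H. Shares within a library are tied, since one can rise only where others fall, and Nfkb1 itself was not called. These shares were chosen after the values of the members were seen, and with 2 libraries a group an exact two-sided permutation test cannot go below p = 0.333.

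Shares of other pairs that act at the same step restate the member values on a scale within the library. The pairs were picked, and the gene with the higher log2 fold change put first, with those values in view, so the direction of each share follows from the choice and adds no support. Ikbkb made up 64.2% and 66.0% of the counts of Ikbkb and Chuk in EV and 81.8% and 78.4% in R882H. Birc2 held 64.8% and 64.3% of the 2 cIAP genes in EV and 75.9% and 76.7% in R882H. The share of Tlr1 in Tlr1 and Tlr6 was 11.5% (3 of 26 counts, exact 95% interval 2.45 to 30.2) and 14.0% (6 of 43, 5.30 to 27.9) in EV, against 59.5% (25 of 42, 43.3 to 74.4) and 46.7% (21 of 45, 31.7 to 62.1) in R882H. Whether reads of the paralog pairs were separated in counting was not tested.

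**Figure D3:**
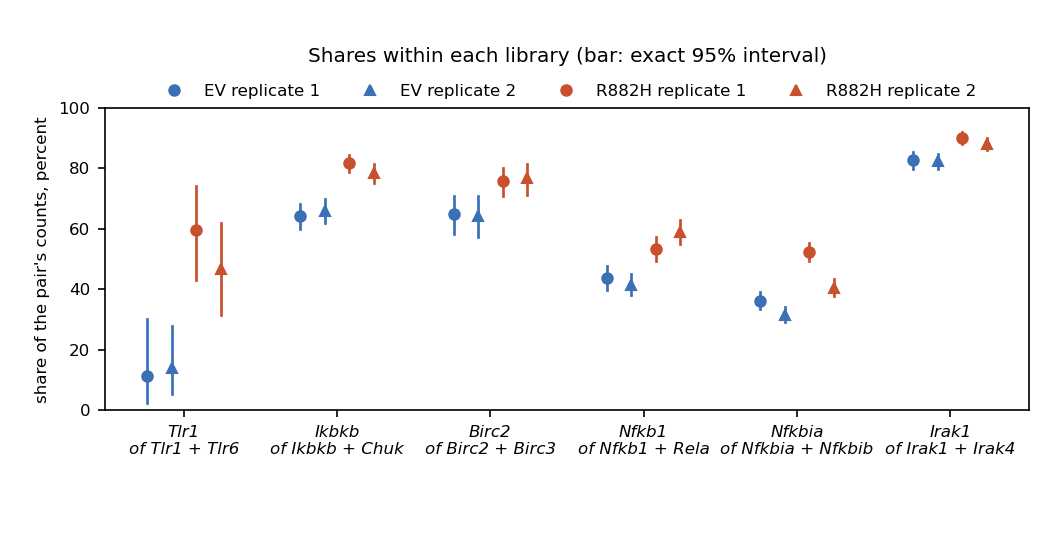
Share of the first gene in the counts of each of 6 pairs, in percent on the vertical axis, for each library (blue, EV; orange, R882H; circle, replicate 1; triangle, replicate 2), with exact 95% intervals as bars. The gene with the higher log2 fold change was put first in each pair, so the plot shows the size of each share and not a direction; Tlr1 made up 11.5% and 14.0% in EV and 59.5% and 46.7% in R882H.

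The genes of inhibitors and feedback moved both ways. Nfkbib, which encodes IκBβ (ENSMUSG00000030595, chromosome 7, bases 28758251 to 28767512), had 139 and 154 CPM with the empty vector against 86.3 and 125 CPM with R882H and fell (change of −0.47 ± 0.15 in log2 units, edgeR adjusted p = 0.00983). The 2 R882H libraries disagreed on the size: the value was −0.22 without R882H replicate 1, where adjusted p was 0.463, and −0.75 without R882H replicate 2, and the call also ended without EV replicate 2 (0.116), in a range from 0.00192 to 0.463. Nfkbib exons overlap Sirt2, which had 24.6 CPM on average with the empty vector and 29.1 CPM with R882H. Nfkbia, which encodes IκBα, the inhibitor that NF-kB itself induces most quickly, had 78.9 and 71.5 CPM with the empty vector against 94.9 and 85.1 CPM with R882H. Its groups did not overlap, but it missed the threshold (0.26, 95% interval −0.01 to 0.53, edgeR adjusted p = 0.121). Nfkbie, for IκBε, had overlapping groups (−0.10, 95% interval −0.92 to 0.71).

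Nfkbiz, which encodes the nuclear protein IκBζ, a co-activator needed for Il6 induction in macrophages (ENSMUSG00000035356, chromosome 16, bases 55811375 to 55838899), rose from counts of 17 and 18 in EV to 52 and 35 in R882H. This is 3.15 ± 0.0422 CPM against 7.42 ± 1.81 CPM (change of 1.24 ± 0.34 in log2 units, edgeR adjusted p = 0.00399), and the call ended without R882H replicate 1 (0.110, in a range from 0.00210 to 0.110). Tnip1, a partner of the ubiquitin-editing brake A20 (ENSMUSG00000020400, chromosome 11, bases 54910785 to 54962917), fell, with 38.0 and 40.8 CPM with the empty vector against 26.9 and 29.1 CPM with R882H (−0.49 ± 0.16, edgeR adjusted p = 0.0167). It lost its call without EV replicate 2 (0.0579), R882H replicate 1 (0.163) and R882H replicate 2 (0.0649) and in DESeq2 (0.0792), from a lowest value of 0.0110. Tnfaip3, the gene for A20, was barely present, with counts of 7 and 1 in EV and 6 and 5 in R882H, and was not tested.

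Of the inflammatory products, Il6 rose and Ptgs2 fell, both from or to very few counts. Il6, the cytokine interleukin 6 (ENSMUSG00000025746, chromosome 5, bases 30013114 to 30019981), had counts of 2 and 2 in EV and 20 and 21 in R882H. Its ratio of normalised counts was 9.76 (95% interval 3.54 to 37.5), and the fitted log2 fold change was 3.21 ± 0.62 (edgeR adjusted p = 9.37e-05), called under all 8 alternatives with values from 3.16 to 3.29. Ptgs2, which encodes the inducible cyclooxygenase of prostaglandin synthesis (ENSMUSG00000032487, chromosome 1, bases 150100031 to 150108227), went the other way, with counts of 15 and 17 in EV and 5 and 2 in R882H. The ratio of EV over R882H was 4.80 (95% interval 2.08 to 12.9), with a fitted log2 fold change of −2.22 ± 0.59 (edgeR adjusted p = 0.00287). The Ptgs2 call ended without R882H replicate 2 (0.0917, in a range from 0.00284 to 0.0917).

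Of the classical early cytokine genes of the pathway, Tnf was not called and Il1b had too few counts to be tested. Tnf had counts of 29 and 19 in EV and 23 and 17 in R882H, with overlapping groups (log2 fold change −0.33, 95% interval −1.11 to 0.44, edgeR adjusted p = 0.520). Il1b had 0 counts in EV and 1 in each R882H library, which is under the floor in both groups. Il1rn, the natural antagonist of the interleukin 1 receptor, had counts of 2 and 3 in EV and 8 and 14 in R882H, a ratio of 4.19 (95% interval 1.55 to 14.2). It did not pass the count filter, and with no filter its edgeR adjusted p was 0.0348.

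Sequences upstream of the members were searched for an NF-kB motif on both strands, GGGA and TTCC with any 2 bases between them, in RefSeq windows of the GRCm38.p6 assembly that run from 250 bases before to 50 bases after a gene's start. Windows were found for 35 of the 42 members, and 4 of these (11.4%) held a match, against 1.63% of the 27025 genes with a window. A looser form, GGG and TTCC with any 3 bases between them, which includes every match of the first, was found for 14 of the 35 (40%) and for 6.31% of all genes. A gene can have several windows: the members had 49 and all genes 32851. Per window the first form was found in 10.2% against 1.47%, and the looser form in 38.8% against 5.56%. Members were listed partly as feedback and output genes of NF-kB, so the choice bears on these shares. Whether they differ from those of all genes was not tested. These 4 windows are shown because they set a gene that rose beside 3 that were not called: Il6 rose, while Nfkbia, Nfkb2 and Map3k7 did not pass the threshold. Each is written 5′ to 3′ on the strand of its gene, with capitals for the matches. They lie at chr5:30012864-30013163 on the plus strand (Il6), chr12:55492598-55492897 on the minus strand (Nfkbia), chr19:46305445-46305744 on the plus strand (Nfkb2) and chr4:31963857-31964156 on the plus strand (Map3k7).
Il6: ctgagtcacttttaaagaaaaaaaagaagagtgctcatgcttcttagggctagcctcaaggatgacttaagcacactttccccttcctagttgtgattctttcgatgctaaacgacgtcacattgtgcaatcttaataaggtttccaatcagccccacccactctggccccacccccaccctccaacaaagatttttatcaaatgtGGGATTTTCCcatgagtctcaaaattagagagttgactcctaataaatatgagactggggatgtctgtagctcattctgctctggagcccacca
Nfkbia: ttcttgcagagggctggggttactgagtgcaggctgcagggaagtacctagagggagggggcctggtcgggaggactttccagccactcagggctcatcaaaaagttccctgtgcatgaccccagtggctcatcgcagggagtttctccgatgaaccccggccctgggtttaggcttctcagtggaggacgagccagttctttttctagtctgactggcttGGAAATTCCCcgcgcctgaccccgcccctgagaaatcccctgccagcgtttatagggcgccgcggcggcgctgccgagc
Nfkb2: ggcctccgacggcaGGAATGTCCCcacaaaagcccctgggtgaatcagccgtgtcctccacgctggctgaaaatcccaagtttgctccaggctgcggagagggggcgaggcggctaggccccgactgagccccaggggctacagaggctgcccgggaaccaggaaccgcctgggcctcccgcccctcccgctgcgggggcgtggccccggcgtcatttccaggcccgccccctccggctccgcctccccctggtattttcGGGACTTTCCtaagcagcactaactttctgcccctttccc
Map3k7: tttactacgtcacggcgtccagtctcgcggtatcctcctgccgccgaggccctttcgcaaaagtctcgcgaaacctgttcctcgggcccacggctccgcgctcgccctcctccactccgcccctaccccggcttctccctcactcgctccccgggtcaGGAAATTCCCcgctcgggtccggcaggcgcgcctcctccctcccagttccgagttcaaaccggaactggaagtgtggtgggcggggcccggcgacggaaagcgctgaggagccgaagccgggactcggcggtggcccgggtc
The Il6 match begins at base 207 of its window and reads GGGATTTTCC on the strand of the gene. In Nfkbia the match begins at base 222 and in Map3k7 at base 159, both as GGAAATTCCC, which is GGGAATTTCC on the opposite strand. The Nfkb2 window holds 2 matches, at bases 15 and 261, and a further window of that gene repeats the second. Among the 14 members with the looser form, 2 were called higher (Il6 and Tlr2), 3 lower (Chuk, Tnip1 and Traf2), 7 were not called and 2 were not tested. A match of letters is a description of the window and not evidence of binding.

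The rest of the pathway, 109 genes in 5 lists chosen with earlier results of these data known, was counted in the same fit. Among its 68 tested genes 10 rose (14.7%) and 24 fell (35.3%), against 19.3% and 19.4% of all tested genes. Whether these shares differ was not tested. Of those that fell, Cd14, Nod1, Il1r1, Lcn2 and Cxcl2 had at least 10 counts in both libraries of EV alone. Ccl4, which rose, had them in R882H alone. These genes entered the test through the group where they were high. DESeq2 called 3 lower in place of 8 among other adaptors, kinases and ubiquitin enzymes, and 1517 in place of 2222 among all tested genes. Of 9 tested accessory proteins and other pattern receptors (18 listed), 2 rose and 3 fell, with a median log2 fold change of 0.21. Cd180, a Toll-like receptor homologue of B cells and myeloid cells, rose, with 4.95 ± 0.261 CPM in the empty-vector cells and 27.3 ± 3.35 CPM with R882H (2.46 ± 0.23, edgeR adjusted p = 7.69e-11), and its exons overlap Mast4. Unc93b1, the chaperone of endosomal receptors, rose as well (0.46 ± 0.14). Cd14, the co-receptor that hands lipopolysaccharide to TLR4, had counts of 43 and 46 in EV and 9 and 3 in R882H and fell (−2.94 ± 0.43, edgeR adjusted p = 1.33e-06), as did Nod1, a cytosolic sensor of peptidoglycan (−3.78 ± 0.42, with counts of 51 and 70 in EV and 5 and 4 in R882H), and Lbp, the lipopolysaccharide binding protein (−0.59 ± 0.16). Ly96, the third part of the TLR4 complex, had counts of 22 and 19 in EV and 23 and 20 in R882H; it was chosen after its values were seen. Tlr3, Tlr8 and Tlr11 had no counts. Unc93b1 lost its call without R882H replicate 2 (0.133, from a lowest value of 0.00405) and Lbp without EV replicate 2 (0.101, from 0.000545), where its value was −0.36.

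In the list of other interleukin 1 and TNF family genes, 6 of 18 were tested, none rose and 2 fell (median −0.15). At an unadjusted p under 0.05, 0 were higher by edgeR and 0 by DESeq2. Il1r1, the signalling receptor that pairs with the Il1rap product, fell from counts of 31 and 52 in EV to 7 and 5 in R882H (−2.83 ± 0.44, edgeR adjusted p = 3.52e-06). Il1rap rose, but its call did not hold under every alternative. Il1r1 entered the test through EV alone and Il1rap through R882H alone, each through the group where it was high. Ltbr, the lymphotoxin receptor of the alternative route, fell from 120 ± 15.0 to 66.3 ± 0.660 CPM (−0.85 ± 0.14). Among other adaptors, kinases and ubiquitin enzymes, 24 of 29 were tested, 2 rose and 8 fell (median −0.02). For this list and the one before it, the shares of all tested genes were 19.3% higher and 19.4% lower. Tirap, which bridges TLR2 and TLR4 to MyD88, fell (−1.11 ± 0.24, edgeR adjusted p = 0.000276), as did Map3k3 (−0.95 ± 0.18), the apoptosis protease gene Casp8 (−0.88 ± 0.15) and Ripk2, the kinase downstream of NOD1 (−0.66 ± 0.22). Ube2n, the E2 enzyme that works with TRAF6 (0.53 ± 0.13), and Ticam2, which bridges TLR4 to TRIF (1.04 ± 0.30), rose. Exons of Tirap overlap Srpr and those of Ticam2 overlap Tmed7. Calls ended for Ube2n without R882H replicate 2 (0.121, from 0.000704) and for Ticam2 without R882H replicate 1 (0.0828, from 0.00463) and in DESeq2 (0.0667). Ripk2 lost its call without EV replicate 2 (0.312, value −0.37), R882H replicate 1 (0.0572) and R882H replicate 2 (0.101) and in DESeq2 (0.125), from 0.00725.

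Of 13 tested genes in a list of other NF-kB inhibitors (14 listed), 2 rose and 5 fell (median −0.24). Among all tested genes 19.3% rose and 19.4% fell. Bcl3, a nuclear IκB protein, fell from counts of 119 and 168 in EV to 11 and 31 in R882H (−2.83 ± 0.29, edgeR adjusted p = 4.68e-09). Tnfaip2, which is induced by TNF and is not itself an established inhibitor (−1.22 ± 0.14), Pdlim2, a ligase for nuclear p65 (−0.69 ± 0.15), and N4bp1 (−0.54 ± 0.15) fell too. Nlrc3, a brake on TRAF6 (1.97 ± 0.38), and Tnfaip8l2 (0.73 ± 0.21) rose. N4bp1 lost its call without R882H replicate 2 (0.0572, from 0.00237), and Tnfaip8l2 on leaving out EV replicate 1 (0.0666) or R882H replicate 2 (0.111), and in DESeq2 (0.0627), from 0.00274.

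Known NF-kB targets outside the members went in both directions, with 16 of 30 tested, 4 higher, 6 lower and a median of −0.04. The shares of all tested genes were 19.3% higher and 19.4% lower. The macrophage chemokine genes Ccl3 (1.54 ± 0.17) and Ccl4 (counts of 5 and 0 in EV and 29 and 27 in R882H, ratio 10.7, 95% interval 4.31 to 34.1) rose, as did Il12a (2.26 ± 0.24) and the cyclin gene Ccnd1 (3.87 ± 0.21, edgeR adjusted p = 8.15e-17), whose exons overlap LTO1. The neutrophil chemokine gene Cxcl2 had counts of 26 and 32 in EV and none in R882H, at least 10.1-fold lower against the floor of 3 counts per library. Lcn2, the siderophore binding protein, had 164 and 224 counts in EV and 3 and 1 in R882H, which is 102-fold more with the empty vector (95% interval 39.5 to 376). Icam1 (−0.89 ± 0.24), the adhesion molecule, and Marcksl1 (−0.60 ± 0.16) fell. The Ccl4 call ended in DESeq2 (0.0864, from 2.18e-07), and without EV replicate 1 its EV level was 0. Icam1 lost its call without EV replicate 2 (0.0701, from 0.00145), and Marcksl1 without EV replicate 2 (0.157, value −0.30) and without R882H replicate 1 (0.0752), from 0.000213. Exons of Icam1 overlap Gm47079.

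**Figure D4:**
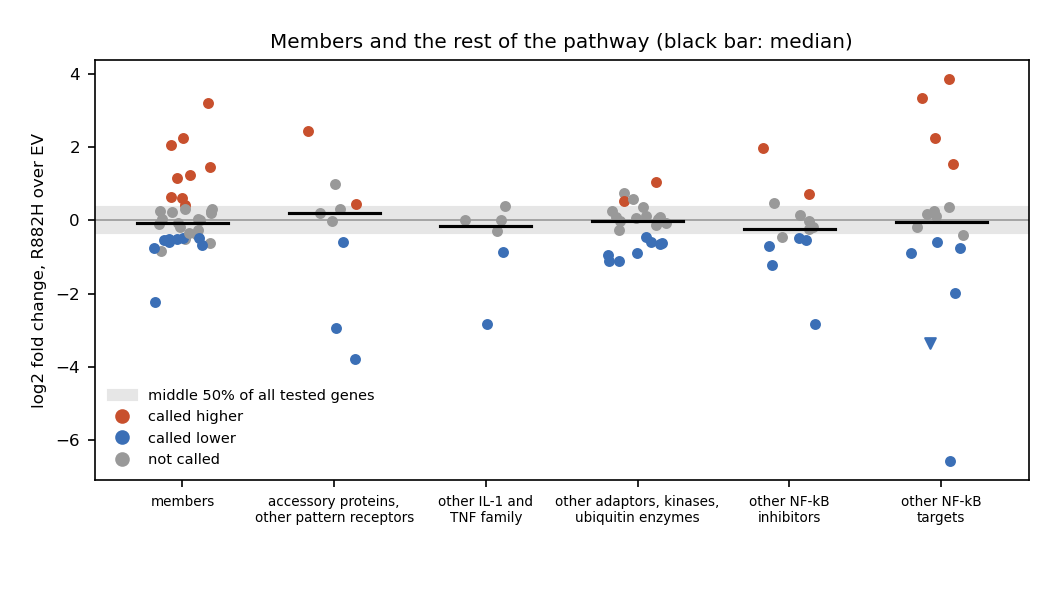
Log2 fold change of R882H over EV (vertical axis) for the tested members and the tested genes of the 5 other lists, 1 point per gene (orange, called higher; blue, called lower; grey, not called), with each list's median as a black bar and the quartile range of all tested genes as a grey band; the triangle is Cxcl2, drawn at its bound because R882H had no counts. Medians lie between −0.24 and 0.21, and single genes spread from Ccnd1 (3.87) to Lcn2.

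Marker genes of several blood cell types differed between the groups as well, and their part in the values above was not tested. Among all tested genes 19.3% were higher and 19.4% lower. Some markers entered the test through R882H alone, such as Pax5 (summed counts of 0 in EV and 163 in R882H) and Prss34 (1 and 452). Names in brackets after the list values are the listed markers with the most counts, whatever their change. In the B lineage list, 7 of 8 genes were tested and all 7 rose, with a summed level of 548 to 567 CPM in EV and 1664 to 1676 CPM in R882H (most counts: Igll1, Ebf1 and Vpreb1). The basophil and mast cell list had 5 of 6 tested genes higher and 1 lower, and 120 to 135 CPM in EV against 501 to 503 CPM in R882H (Cpa3, Kit and Gata2), with Fcer1a at 0. For macrophages and monocytes, the cell types in which Toll-like receptors are best known, 2 of 4 tested genes rose and 1 fell, with sums of 54.1 to 57.5 CPM in EV and 69.5 to 77.1 CPM in R882H (Cd68, Csf1r and Adgre1), and Mertk was at 0 in all libraries. Neutrophil precursor genes summed to 1141 to 1295 CPM in EV and 2793 to 2847 CPM in R882H (most counts: Ctsg, Mpo and Prtn3). In that list 2 of 4 tested genes were higher and 2 were not called, with S100a9, Camp and Ly6g at 0. The dendritic list had 2 of 3 tested genes higher and 1 lower (Flt3, Tcf4 and Bst2; 535 to 557 CPM in EV, 747 to 851 in R882H), with Siglech at 0. In the megakaryocyte and erythroid list 1 of 4 tested genes rose and 1 fell, with sums of 854 to 1045 CPM in EV and 23.9 to 29.8 in R882H (Pf4, Itga2b and Gp9). The median log2 fold change of its tested genes was −0.12, so the lower sum mainly reflects the 1 gene that fell and not the list. T and natural killer cell genes were nearly absent (at most 4.24 CPM in EV, 24.6 to 25.8 in R882H, nearly all Nkg7, with Klrb1c and Trac behind it), with Cd3e, Cd4, Cd8a and Ncr1 at 0. Fibroblast and endothelial genes (Pecam1 and 1 count of Kdr) gave 2.75 to 2.82 CPM in EV and 11.4 to 12.3 in R882H, and the other 6 of that list were at 0.

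Over the members as a set, 3 of the 19 calls held in all 8 alternatives: Tlr1, Tlr2 and Il6. Tlr1 and Il6 had entered the test through R882H alone. How many of all called genes held in all 8 was not counted, so this share has no background beside it. Calls over all tested genes were also fewer in DESeq2, with 1401 higher against 2213 and 1517 lower against 2222. Without R882H replicate 1 the members counted 4 higher and 5 lower in place of 9 and 10, and DESeq2 gave 6 higher and 5 lower.

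**Figure D5:**
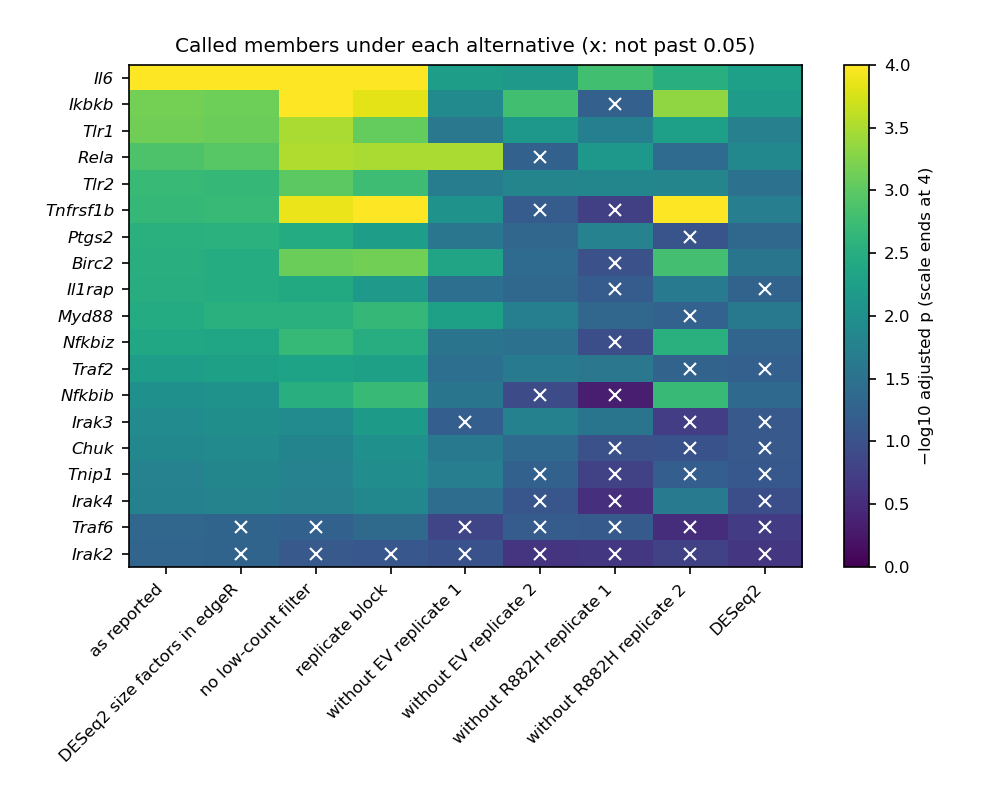
Adjusted p of the 19 called members (vertical axis, smallest reported p at the top) as reported and under each of 8 alternatives (horizontal axis), as −log10 on a colour scale that ends at 4; a white cross marks values that do not pass 0.05. The rows of Il6, Tlr1 and Tlr2 hold no cross, and that of Irak2 has one in each of the 8 alternatives.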

How the data were processed

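RNA of 4 mouse cell libraries was sequenced with a 3′ tag kit (QuantSeq), per the labels' protocols. The deposited table holds raw counts per Ensembl gene, 1 column per library. The mm10 build, HISAT2 2.0.4, cutadapt 1.14, Subread 2.0.0 featureCounts, limma 3.48.3, edgeR 3.34.0 and bcl2fastq 2.17.1.14 are named, without roles, in the submitters' processing notes. Annotation and strand setting are not stated there. The 22 protocadherin gamma genes, which share 3′ exons, had totals from 1387 to 1410 counts, so shared exons were counted for each gene; overlaps with genes of at least 10 counts are therefore named.

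From these counts, edgeR 4.0.16 in R 4.3.3 was run with filterByExpr, TMM factors, robust glmQLFit and glmQLFTest over all 11444 tested genes, and tested on simulated data; the common biological coefficient of variation was 0.0957. The standard error of a log2 fold change is its size divided by √F. Symbols and positions come from GENCODE M21 (same assembly as mm10), matched for 52489 of 52636 lines. Alternatives were DESeq2 size factors, no filter, a replicate block, DESeq2 1.42.0 and leaving out each library. Members, lists and the rule for named genes (all members; up to 4 called genes per direction of each list, by p; the 3 markers with most counts) were chosen with earlier results of these data known.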

Additional observations from a re-analysis of the deposited data

How the results depend on the processing

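Depth limits the members with few counts (Tlr7, Tlr9, Tnfaip3, Il1b and Il1rn were not tested), and each fit without a library leaves 1 sample in a group, assumed to vary like the other. Without 1 library each, members called higher numbered 4 to 8 and lower 4 to 10 (9 and 10 with all 4), and DESeq2 gave 5 lower. Over all genes, DESeq2 called 1401 higher against 2213, and leave-one-out fits 1508 to 2065 higher and 1446 to 2168 lower. Leave-one-out ranges were 1 to 2 higher and 3 to 7 lower for other adaptors, kinases and ubiquitin enzymes, 1 to 2 higher and 3 to 5 lower for other inhibitors, and 2 to 7 lower for other targets. DESeq2 gave 1 higher and 3 lower for the adaptor list and 1 higher for the inhibitor list. With no filter 1 gene of the interleukin 1 and TNF list was called higher. Of the members' values under the alternatives, 241 kept direction and side of the threshold, 42 lost the call, 2 gained it and 11 changed sign, and the cause was not tested. Signs turned for 8 members, none called with the turned sign. Their leave-one-out log2 fold changes ranged as follows: Ikbkg (−0.022 to 0.77), Tnfrsf1a (−0.16 to 0.030), Tab1 (−0.088 to 0.66), Tab2 (−0.020 to 0.089), Birc3 (−0.36 to 0.024), Relb (−0.074 to 0.17), Nfkbie (−0.46 to 0.22) and Tnf (−0.64 to 0.024). Protein identity of the paralog pairs was planned and not run. The 2 gained calls were Ticam1 without EV replicate 1 (−0.70) and Ikbkg without EV replicate 2 (0.77). Deviations of libraries with the same number were uncorrelated (r = 0.004), so the numbers were not taken to pair the samples; with the replicate block 8 members were called higher and 10 lower, and 2196 and 2229 genes in all, with Irak2 the only member to lose its call.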
